A study of Mus musculus with 16 samples.

Results

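Glycine receptor, gephyrin and glycine transporter genes were followed across mouse spinal cord arrays through 5 genes, chosen by symbol in the platform annotation: Glrb, Glra1, Gphn, Slc6a9 and Slc32a1. Each has 1 probe set, so the description rests on 5 of the 12488 probe sets of the array. Probe set 104449_at reads Glrb, 100385_at Glra1, 99441_at Gphn, 96160_at Slc6a9 and 101420_at Slc32a1. The sources used here do not say which stretch of a transcript its probes cover.

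Glycine is, beside GABA, the main fast inhibitory transmitter of the spinal cord. Its receptor is a chloride channel built from alpha subunits, which bind glycine, and the beta subunit, which fixes the channel to the scaffold protein gephyrin under the synapse. Glra1 encodes the alpha subunit of the adult cord, Glrb the beta subunit and Gphn gephyrin, which also anchors GABA-A receptors and takes part in making the molybdenum cofactor. Slc6a9 encodes a glycine transporter found mostly on astrocytes, and Slc32a1 the transporter that loads glycine and GABA into synaptic vesicles. Spastic mice carry a recessive Glrb mutation, an inserted transposable element in an intron that disturbs splicing, and have rigid muscles and tremor.

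The 16 arrays fall by title into spastic (6 arrays), B6C3Fe (2 arrays) and control (8 arrays) cords. Spastic arrays are titled 2 months (2 females), 3+ months (1 male), 3 months with the mark sev (1 male) and 6 months with the mark M (2 arrays of 1 female title). B6C3Fe, a hybrid stock, is titled 1 month and male, and controls are 9 and 12 months old, with arrays of both sexes at each age; the genotype of these groups is not given in the labels beyond their names. Pairs of arrays titled alike except for a letter (a, b) were treated as 1 sample each by their mean, giving 5 spastic, 1 B6C3Fe and 4 control samples. The labels do not say whether samples are single animals or pools, so p-values measure the spread between these samples only. Titled age and group change together, since controls are titled 9 months or more and the oldest stated spastic age is 6 months.

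Both spastic arrays titled male had the female pattern of Xist, which is expressed from the silenced X chromosome. It was at 10.37 and 10.54 on the log2 scale there, and at 5.97 or below on the B6C3Fe and control arrays titled male. By this pattern all spastic samples were female and B6C3Fe male, so sex and group cannot be told apart between them. Controls held both sexes, so spastic against control is partly confounded with sex. Array a of the 9-month female controls stood apart from its partner in the ratio of 3-prime to 5-prime signal at the Pcx control probe sets, a ratio that broken RNA can raise. On the log2 scale it was 2.72, against 1.31 on array b. Over samples this ratio averaged 2.38 ± 0.38 (SD, n = 5) in spastic and 1.73 ± 0.22 (SD, n = 4) in control cords, and was 1.78 in B6C3Fe (exact permutation test of spastic against control, 2-sided, p = 0.0317, adjusted over the 4 control genes with such a ratio p = 0.127). The other 3 ratios were not higher in spastic cords. They were at -0.31 in spastic and -0.25 in control for Gapdh, -0.06 and 0.26 for Actb, and 0.97 and 1.48 for Tfrc. In B6C3Fe the Actb ratio was -2.25. None of the 4 ratios differed between spastic and control cords at an adjusted p under 0.05. The Pcx ratio is used below as 1 measure with a higher mean in spastic cords and not as a grade of RNA quality. Median intensities of the arrays lay between 289 and 383.6. Of 12 Hox genes tested, which mark position along the cord, 2 were higher and 0 lower in spastic cords at an adjusted p under 0.05, near the 19.8% of all genes tested that were called in this comparison. The summed intensity of the 13 listed was 11726 to 13584 in spastic, 12133 in B6C3Fe and 11806 to 12939 in control samples.

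Glrb was lower in every spastic sample than in any other. Its log2 intensity was 10.61 and 11.11 in the spastic samples of 2 months, 9.92 in that of 3+ months, 10.89 in sev and 10.32 in the sample titled M of 6 months. It was 12.95 in B6C3Fe. Controls stood at 13.00 (female) and 13.17 (male) at 9 months and at 12.94 (female) and 12.88 (male) at 12 months. Neither samples nor single arrays of spastic cords overlapped with the others, with intensities of 969 to 2218 in spastic, 7758 to 8078 in B6C3Fe and 6670 to 10089 in control cords. The spastic mean was 10.57 ± 0.47 (SD, n = 5), and the control mean 13.00 ± 0.12 (SD, n = 4).

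**Figure D1:**
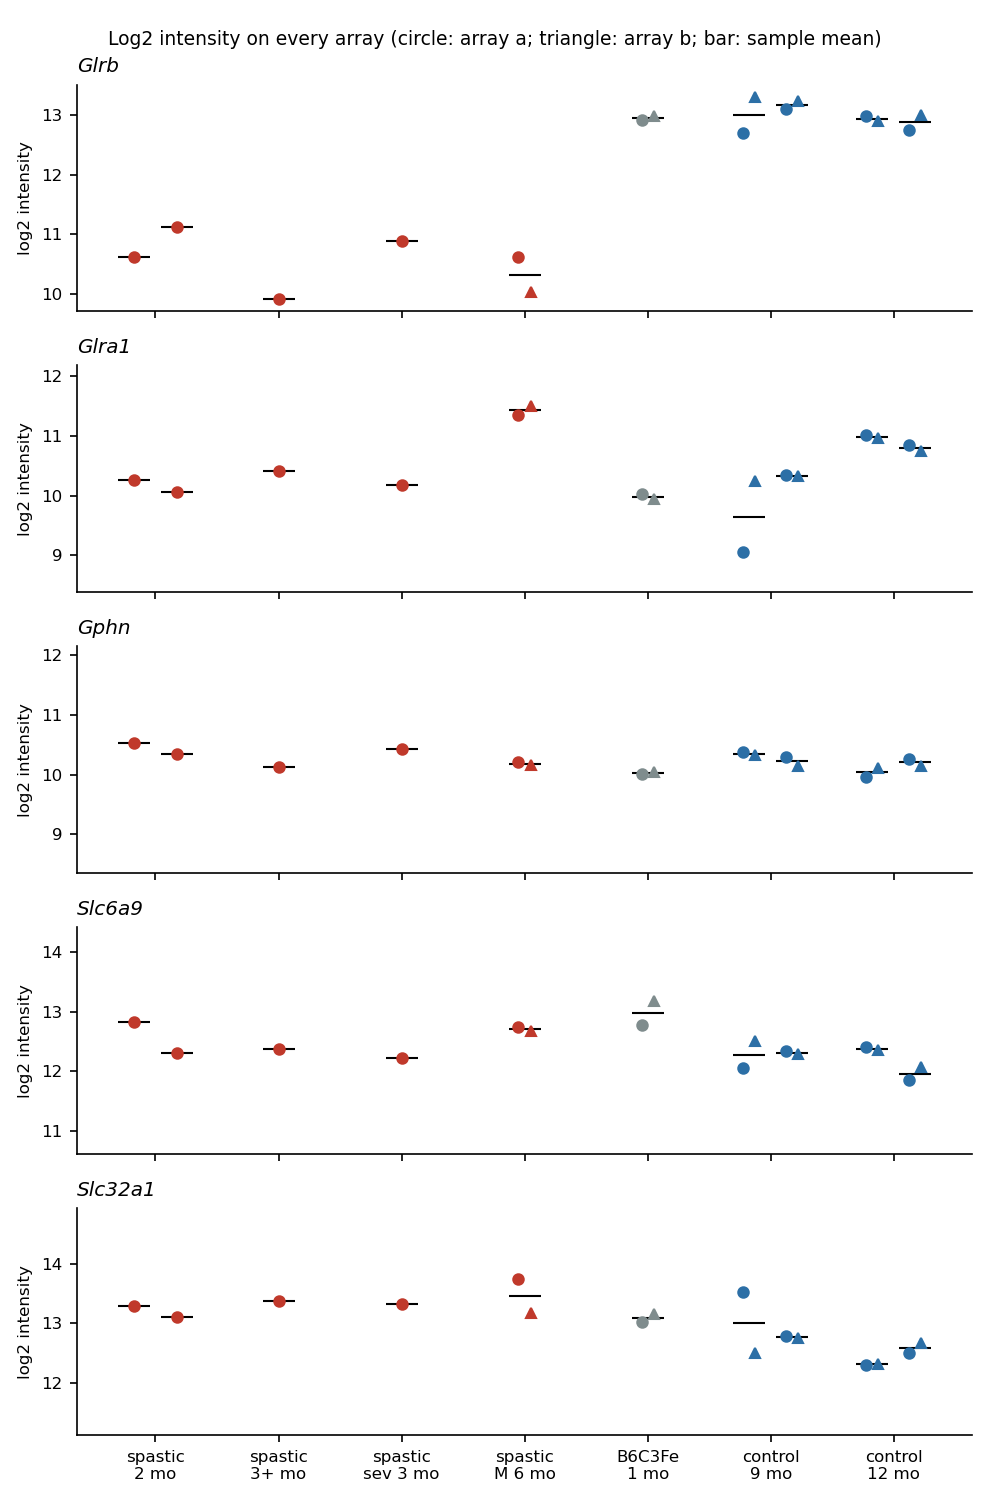
Log2 intensity (vertical axes) of the 5 genes on each of the 16 arrays, by titled group and age; circles are arrays a, triangles arrays b, and bars the sample means. Glrb lies between 9.92 and 11.11 on spastic arrays and at 12.70 or above on all others, and Glra1 is highest in the spastic sample of 6 months.

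Fitted with group and titled sex, Glrb fell by 2.44 on the log2 scale in spastic against control cords (SE 0.20, 95% interval -2.88 to -1.99, limma adjusted p = 0.000307). That leaves 18.5% of the control intensity (95% interval 13.5% to 25.2%). Among the 6425 genes tested Glrb ranked 2 by p-value and 8 by size. In this comparison 19.8% of all genes tested were called at an adjusted p under 0.05, and 9.93% were called lower; 4.33% were lower with no overlap of arrays. Against B6C3Fe the fall was 2.45 (SE 0.35, adjusted p = 0.0129), in a comparison where 2.05% of genes were called and 0.638% were called lower. B6C3Fe and controls differed by 0.02 at Glrb (95% interval -0.76 to 0.80, adjusted p = 0.986).

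The fall of Glrb against controls passed the test in each of the 30 alternatives run. With the Pcx ratio added to the model it was -1.78 (adjusted p = 0.0179), and 9 of all genes tested were called in that fit. Without the 2 spastic samples titled male it was -2.29 against controls (adjusted p = 0.00291) and -2.21 against B6C3Fe, where the call was lost (adjusted p = 0.0839). Among the 9-month female controls, array a had a Pcx ratio of 2.72, within the spastic range of 2.00 to 2.98. Its Glrb log2 intensity was 12.70, the lowest of the 8 control arrays, and array b read 13.30 at a ratio of 1.31. The control array with the next highest ratio, 2.09, read 12.75. The part of this ratio in Glrb values among controls was not tested. In bulk RNA, fewer cells of a type and less RNA per cell cannot be told apart. The summed intensity of 12 neuronal marker genes was 75949 to 102049 in spastic, 76947 in B6C3Fe and 81820 to 94605 in control samples. This sum is carried by the brightest genes: of the 12, 2 were higher and 3 lower, beside 19.8% called over all genes. The lower ones, named after their values were seen, were Map2 at -2.85 (adjusted p = 0.00255, at the floor on 2 of 6 spastic and 1 of 8 control arrays), Syt1 at -2.83 (adjusted p = 0.00203, at the floor on 1 of 6 spastic arrays) and Nefl at -1.10 (adjusted p = 0.00214), and the higher ones Syp at 0.72 (adjusted p = 0.0174) and Nefm at 0.39 (adjusted p = 0.0482). Map2 and Syt1, at spastic means of 6.43 and 6.68, passed the filter cut of 7.62 on mean level through the other groups. Neuronal genes thus moved in both directions, and their part in the fall of Glrb was not tested.

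Glrb spanned 9.92 to 11.11 among spastic samples and 12.88 to 13.17 among control samples. Each control value is a mean of 2 arrays, while every spastic value but that of 6 months is a single array. These ranges are therefore not alike in kind, and single control arrays spanned 12.70 to 13.30. The difference in spread was not tested. Ordered by the condition mean, controls of 9 months (13.08), B6C3Fe (12.95) and controls of 12 months (12.91) came first and lay within 0.18 of each other. A gap of 2.02 separated them from sev (10.89), spastic of 2 months (10.86), M of 6 months (10.32) and 3+ months (9.92), in that order. Sev and 2 months lay closer together than the 2 samples of 2 months did. M of 6 months against 2 months gave -0.54 (95% interval -1.05 to -0.03, unadjusted p = 0.0409, limma adjusted p = 0.685), and the sev sample against the other spastic samples 0.49 (95% interval -0.06 to 1.04, adjusted p = 0.974). On single spastic arrays, from the lowest to the highest Pcx ratio, Glrb read 11.11 at 2.00, 10.61 at 2.18, 10.89 at 2.24, 10.61 at 2.50, 10.03 at 2.53 and 9.92 at 2.98. Lower Glrb values within the spastic group thus went with higher Pcx ratios, with 1 pair of neighbours out of order. The part of this ratio in these differences was not tested.

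**Figure D2:**
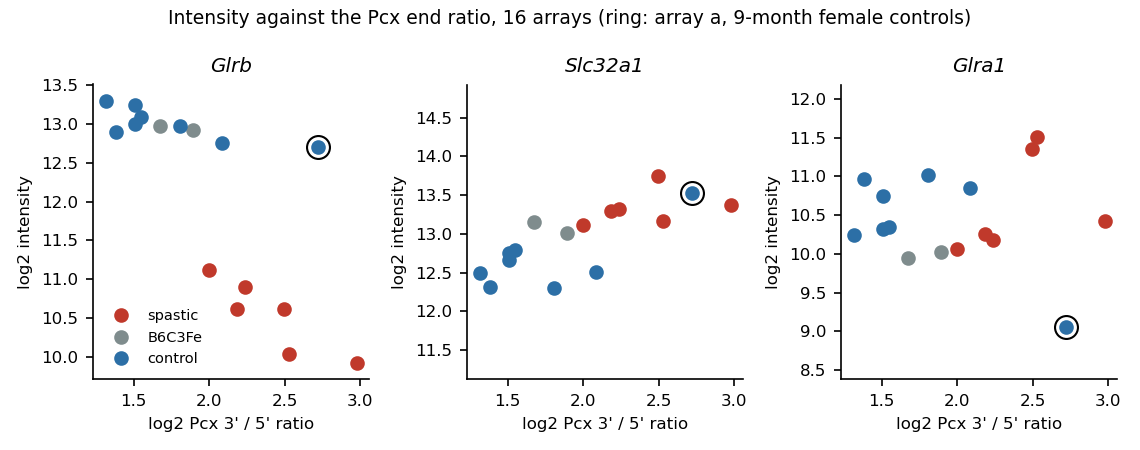
Log2 intensity of Glrb, Slc32a1 and Glra1 (vertical axes) against the log2 ratio of 3-prime to 5-prime Pcx signal (horizontal axes) on 16 arrays, coloured by group; the ring marks array a of the 9-month female controls. At a ratio of 2.72 that array has a Glrb of 12.70, the lowest among controls but above every spastic array. Its Slc32a1 of 13.53 lies among the spastic arrays, and its Glra1 of 9.06 is the lowest of all.

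Glra1, the partner subunit, showed no detectable difference between spastic and control cords. It was at 10.26 and 10.06 in the spastic samples of 2 months, 10.42 at 3+ months, 10.18 in sev and 11.43 in M of 6 months. It was at 9.98 in B6C3Fe, and in controls at 9.65 (female) and 10.34 (male) at 9 months and at 10.99 (female) and 10.80 (male) at 12 months. The groups overlapped through most of their range, with a mean of 10.47 ± 0.55 (SD, n = 5) in spastic and 10.44 ± 0.60 (SD, n = 4) in control cords. The fitted difference was 0.02 (SE 0.31, limma adjusted p = 0.967), and its 95% interval, -0.67 to 0.71, covers 0.631-fold to 1.64-fold of the control level. Against B6C3Fe it was 0.46 (95% interval -0.73 to 1.65, adjusted p = 0.66).

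In spastic and in control cords alike, Glra1 was highest in the samples with the oldest stated age. The oldest spastic age is 1 sample that alone bears the mark M, so age and mark cannot be told apart. Across groups the order did not follow age. Controls of 9 months averaged 9.99, below the spastic samples of 2 months (10.16) and 3+ months (10.42). The spastic sample M of 6 months, at 11.35 and 11.51 on its arrays, lay above every other array of the series, the next being 11.02 in a 12-month control. It exceeded the spastic samples of 2 months by 1.27 (SE 0.45, 95% interval 0.26 to 2.28, unadjusted p = 0.0194), which did not pass limma's test over all genes (adjusted p = 0.525); 0.467% of genes were called. Among controls, 12 months exceeded 9 months by 0.90 (SE 0.40, 95% interval 0.01 to 1.79, unadjusted p = 0.0476, adjusted p = 0.908), with 0 of 6425 genes called (0.00%) and 346 at an unadjusted p under 0.05. By size these differences ranked 112 and 80 among the genes tested. The 9-month value rests in part on array a of the females, at 9.06, where array b read 10.24. Sev against the other spastic samples was at -0.66 (95% interval -1.74 to 0.43, adjusted p = 0.974), in a comparison where 0.0311% of genes were called.

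Leaving out the 6-month sample turned the Glra1 difference between spastic and control cords to -0.21 (adjusted p = 0.59), and leaving out the 9-month female controls to -0.33 (adjusted p = 0.443). Without the 12-month female controls it was 0.25. A model that counted B6C3Fe as control and held log2 of age gave 0.44 (adjusted p = 0.356). The condition means of Glra1 were, in falling order, M of 6 months (11.43), controls of 12 months (10.89), 3+ months (10.42), sev (10.18), 2 months (10.16), controls of 9 months (9.99) and B6C3Fe (9.98). Neighbours from 3+ months downwards were 0.24 or less apart, which is under the SD of 0.49 between the controls of 9 months.

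Gphn had the narrowest range of the 5 genes over the 10 samples, 10.02 to 10.53, and was called in 0 of 6 comparisons. It was at 10.53 and 10.34 in the spastic samples of 2 months, 10.12 at 3+ months, 10.43 in sev and 10.18 in M of 6 months. B6C3Fe stood at 10.02, and controls at 10.35 (female) and 10.22 (male) at 9 months and at 10.04 (female) and 10.20 (male) at 12 months. Spastic cords averaged 10.32 ± 0.17 (SD, n = 5), and controls 10.20 ± 0.13 (SD, n = 4). The difference was 0.11 (95% interval -0.14 to 0.37, limma adjusted p = 0.536), so a change of the scaffold transcript beyond 1.29-fold upwards or 0.905-fold downwards lies outside the interval. Neighbouring conditions in the order of their means differed by at most 0.14, less than the SD of 0.17 between spastic samples. Between arrays a and b of a sample it moved by at most 0.15, also in the 9-month female controls (0.04).

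Slc6a9 was highest in B6C3Fe, the sample titled youngest. Spastic samples stood at 12.83 and 12.31 at 2 months, 12.37 at 3+ months, 12.22 in sev and 12.71 in M of 6 months, and controls at 12.28 (female) and 12.31 (male) at 9 months and at 12.38 (female) and 11.96 (male) at 12 months. B6C3Fe stood at 12.98, above all of them, and spastic and control samples overlapped. From the highest condition mean to the lowest, B6C3Fe (12.98), M of 6 months (12.71), 2 months (12.57), 3+ months (12.37), controls of 9 months (12.30), sev (12.22) and controls of 12 months (12.17) followed each other in steps of 0.27 or less, all under the SD of 0.37 between the spastic samples of 2 months. Spastic minus control was 0.23 (95% interval -0.05 to 0.50, limma adjusted p = 0.226), and spastic minus B6C3Fe -0.65 (95% interval -1.12 to -0.17, unadjusted p = 0.0125, adjusted p = 0.144).

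B6C3Fe exceeded controls by 0.87 at Slc6a9 (95% interval 0.40 to 1.35, unadjusted p = 0.00194), which missed the threshold over all genes (adjusted p = 0.101); 0.389% of genes were called. It was called with every array counted as its own replicate (0.87) and with the sample as a random block (0.87). Both fits take the 2 arrays of the 1 B6C3Fe sample separately, so these calls rest on no further sample and are not added evidence. The B6C3Fe arrays themselves read 12.77 and 13.18, and the highest control array 12.51. In the age model that counts B6C3Fe as control, spastic minus control turned to -0.17 (adjusted p = 0.51). Of 7 astrocyte marker genes tested 1 was higher and 2 were lower in spastic than in control cords, beside 19.8% of all genes called. Their summed intensity was 39054 to 68862 in spastic, 54861 in B6C3Fe and 48645 to 65715 in control samples.

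Slc32a1 was higher in spastic cords. It was at 13.29 and 13.11 in the spastic samples of 2 months, 13.37 at 3+ months, 13.32 in sev and 13.46 in M of 6 months, and at 13.08 in B6C3Fe. Controls stood at 13.01 (female) and 12.77 (male) at 9 months and at 12.31 (female) and 12.59 (male) at 12 months. Every spastic sample lay above every control sample, by 0.10 at the nearest pair, and B6C3Fe lay between them. The means were 13.31 ± 0.13 (SD, n = 5) in spastic and 12.67 ± 0.30 (SD, n = 4) in control cords. The fitted rise was 1.56-fold (log2 difference 0.65, SE 0.14, 95% interval 0.33 to 0.96, limma adjusted p = 0.0106), in a comparison where 9.82% of genes were called higher and 9.29% lay higher with no overlap of samples (19.5% in either direction).

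Single arrays of Slc32a1 did overlap, through array a of the 9-month female controls at 13.53, where array b of the same title read 12.50. Leaving that array out gave a rise of 0.79 (adjusted p = 0.000937). The difference of 1.03 between these arrays exceeds the fitted difference between the groups, and the array with the higher Slc32a1 is the one with the Pcx ratio of 2.72. With the Pcx ratio added to the model, the rise was 0.41 (adjusted p = 0.328). The call was also lost with only the 1a arrays (0.57, adjusted p = 0.121), without the 2 spastic samples titled male (0.62, adjusted p = 0.111), with only samples titled female (0.62, adjusted p = 0.158), and in the age model that counts B6C3Fe as control (0.47, adjusted p = 0.0877). It was kept in each of the fits that left out 1 sample, at 0.50 to 0.80.

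Against B6C3Fe, Slc32a1 was at 0.25 (95% interval -0.29 to 0.79, adjusted p = 0.591), and B6C3Fe against controls at 0.40 (95% interval -0.14 to 0.94, adjusted p = 0.485). Controls of 12 months lay below those of 9 months by a difference of -0.44 (95% interval -0.83 to -0.06, unadjusted p = 0.0289, adjusted p = 0.905). In order of condition, M of 6 months (13.46), 3+ months (13.37), sev (13.32), 2 months (13.20), B6C3Fe (13.08), controls of 9 months (12.89) and controls of 12 months (12.45) followed each other. Steps between neighbours were 0.19 or less, except the last, at 0.44; the SD of the controls was 0.30.

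**Figure D3:**
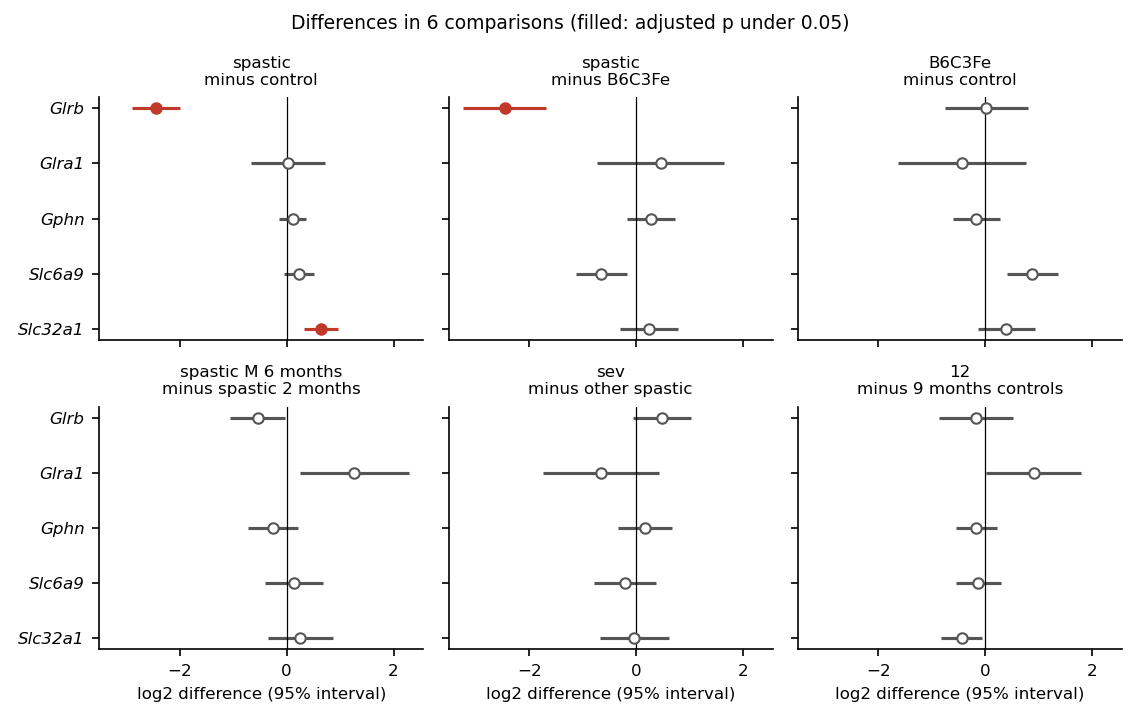
Log2 differences of the 5 genes (horizontal axes, with 95% intervals) in 6 comparisons, with filled points where limma's adjusted p is under 0.05. Glrb is called against both controls and B6C3Fe, Slc32a1 against controls, and all other differences are open points.

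Together, 2 of the 5 genes were called between spastic and control cords, 1 lower and 1 higher, beside the 19.8% of all genes tested, and 3 did not pass. The median of the 5 differences was 0.11, and that of all genes tested -0.02. Against B6C3Fe 1 of 5 was called, and 0 in each of the 4 other comparisons, where an unadjusted limma p under 0.05 was reached by Slc6a9 (B6C3Fe minus control), by Glrb and Glra1 (6 minus 2 months) and by Glra1 and Slc32a1 (12 minus 9 months). Exact permutation tests on the sample means gave p = 0.0159 for Glrb and Slc32a1, the smallest p that 5 against 4 samples allow, p = 0.238 for Slc6a9, p = 0.317 for Gphn and p = 1 for Glra1 (2-sided). Endothelial and mural marker genes differed between spastic and control cords as well. Of 9 tested, 7 were higher and 0 lower in spastic cords, beside 9.82% of all genes called higher. Their median difference was 0.86 against controls and 1.20 against the 1 B6C3Fe sample. The summed intensity over all 11 listed was 6625 to 8630 in spastic, 3512 in B6C3Fe and 3382 to 3985 in control samples. Of the 3 motor neuron markers tested 2 were higher and 0 lower against controls, beside the same 9.82%. Their median difference was 0.80 against controls and 0.96 against B6C3Fe. The summed intensity over 4 listed was 5269 to 8514 in spastic, 4347 in B6C3Fe and 4007 to 4768 in control samples. For both lists, their part in the results above was not tested.

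**Figure D4:**
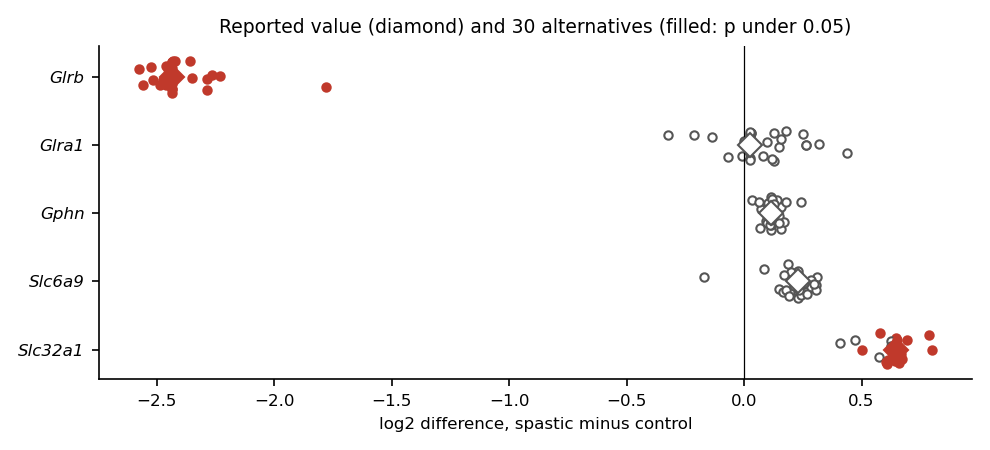
Log2 difference between spastic and control cords (horizontal axis) for each of the 5 genes, as reported (diamonds) and in 30 alternatives (circles), with filled symbols where p is under 0.05 (adjusted over all genes tested, or exact for the permutation test). Glrb stays between -2.58 and -1.78, while Glra1 lies on both sides of 0, between -0.33 and 0.44.

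In 5 lists of genes around the receptor 39 genes were tested between spastic and control cords, and 12 were called, 10 lower and 2 higher. Over all genes tested 19.8% were called, 9.93% lower and 9.82% higher, and in the lists 30.8%, 25.6% and 5.13%. The difference was not tested. Kif5c, Gabra2 and Gabrg1, among the lower calls, had spastic means under the filter cut of 7.62 and were tested through the other groups. The lists were also chosen with earlier results of these data known, so the lower share is no measure of an excess of falls. Glra2, Glra3, Glra4 and Slc6a5, the other glycine receptor alpha subunits and the neuronal glycine transporter, have 0 probe sets here. Of 20 genes for gephyrin partners and inhibitory synapse assembly 15 were tested, and 4 fell and 1 rose, 5 of 15 beside the 19.8% of all genes, with a median difference of -0.04. Kif5c, a kinesin heavy chain, was lower (adjusted p = 0.000871), but its size is set by the floor of 60.9 intensity units. At that floor lay 4 of 6 spastic arrays and 1 of 8 control arrays. The difference was -2.87 with this floor and -1.56 with a floor at the 40th percentile. Its spastic mean of 6.12 lay under the filter cut of 7.62, so it was tested through the other groups. Its relative Kif5b fell by 0.69 (adjusted p = 0.0388), a call lost in 14 of 29 alternatives, 6 of them with 1 sample left out (adjusted p 0.013 to 0.595 over all 29). Enah, an actin regulator reported to bind gephyrin, fell by 0.90 (adjusted p = 0.00439). In B6C3Fe it was at 10.03, below the spastic mean of 10.48. A second measurable probe set of Enah was at -0.34 (adjusted p = 0.388). Mocs2, an enzyme of molybdenum cofactor synthesis, the metabolic pathway gephyrin completes, fell by 0.58 (adjusted p = 0.00667). Pfn1, the actin-binding profilin, rose by 1.47 (adjusted p = 0.00419); B6C3Fe, at 9.45, was as high as the spastic mean of 9.19, and controls averaged 7.76.

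Of 16 listed genes of glycine metabolism 10 were tested, with 1 higher, 1 lower and a median of -0.17; 2 of 10 is about the 19.8% called over all genes. Dld, the dehydrogenase shared by the glycine cleavage system and the pyruvate dehydrogenase complex, fell by 0.50 (adjusted p = 0.00708), and Dao, which degrades D-amino acids and can oxidise glycine, rose by 0.58 (adjusted p = 0.0182). Of 12 transcription factors and markers of inhibitory interneurons 7 were tested and 1 was called, which is also near that share. Calb1, calbindin, fell by 0.46 (adjusted p = 0.024), a call lost in 11 of 29 alternatives. In B6C3Fe it was at 8.91, below the spastic mean of 9.23. Gad1, an enzyme of GABA synthesis, was at -0.25 (adjusted p = 0.133) and the calcium buffer Pvalb at -0.06 (adjusted p = 0.682). A second Pvalb probe set was at -0.45 (adjusted p = 0.0647).

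Of 5 chloride transporters 4 were tested and 1 was called, beside 19.8% of all genes tested. Slc12a2, which carries chloride into cells, fell by 0.34 (adjusted p = 0.0258), and Slc12a5, which carries chloride out of neurons, was at -0.31 (95% interval -0.88 to 0.27, adjusted p = 0.439); Slc12a4 was at 0.27 (adjusted p = 0.3). For the GABA-A receptor, whose subunits gephyrin also clusters, 10 of 15 listed subunits are on the array. Only 3 passed the filter on mean level, and all 3 were called, beside 19.8% of all genes tested. Gabra2 and Gabrg1, at spastic means of 7.45 and 7.42, lay under the filter cut of 7.62 in spastic cords. They were tested through their higher levels in the other groups, so the count of calls is no test of the receptor. Gabra2 fell by 2.11, Gabrg1 by 1.60 and Gabrb1 by 0.96 (adjusted p = 0.00294, 0.00156 and 0.00587). In B6C3Fe, Gabrb1 was at 9.96, below the spastic mean of 10.31. Of the 12 genes called in these lists, 6 were no longer called without the 2 spastic samples titled male, 7 in the age model and 10 with titled females alone. With the Pcx ratio in limma's model 0 of the 12 were called, and 8 had an unadjusted p under 0.05. Against B6C3Fe 0 of the 12 were called and 5 had an unadjusted p under 0.05; there Gabra2 was at -1.61 (adjusted p = 0.173) and Kif5c at -2.02 (adjusted p = 0.104).

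**Figure D5:**
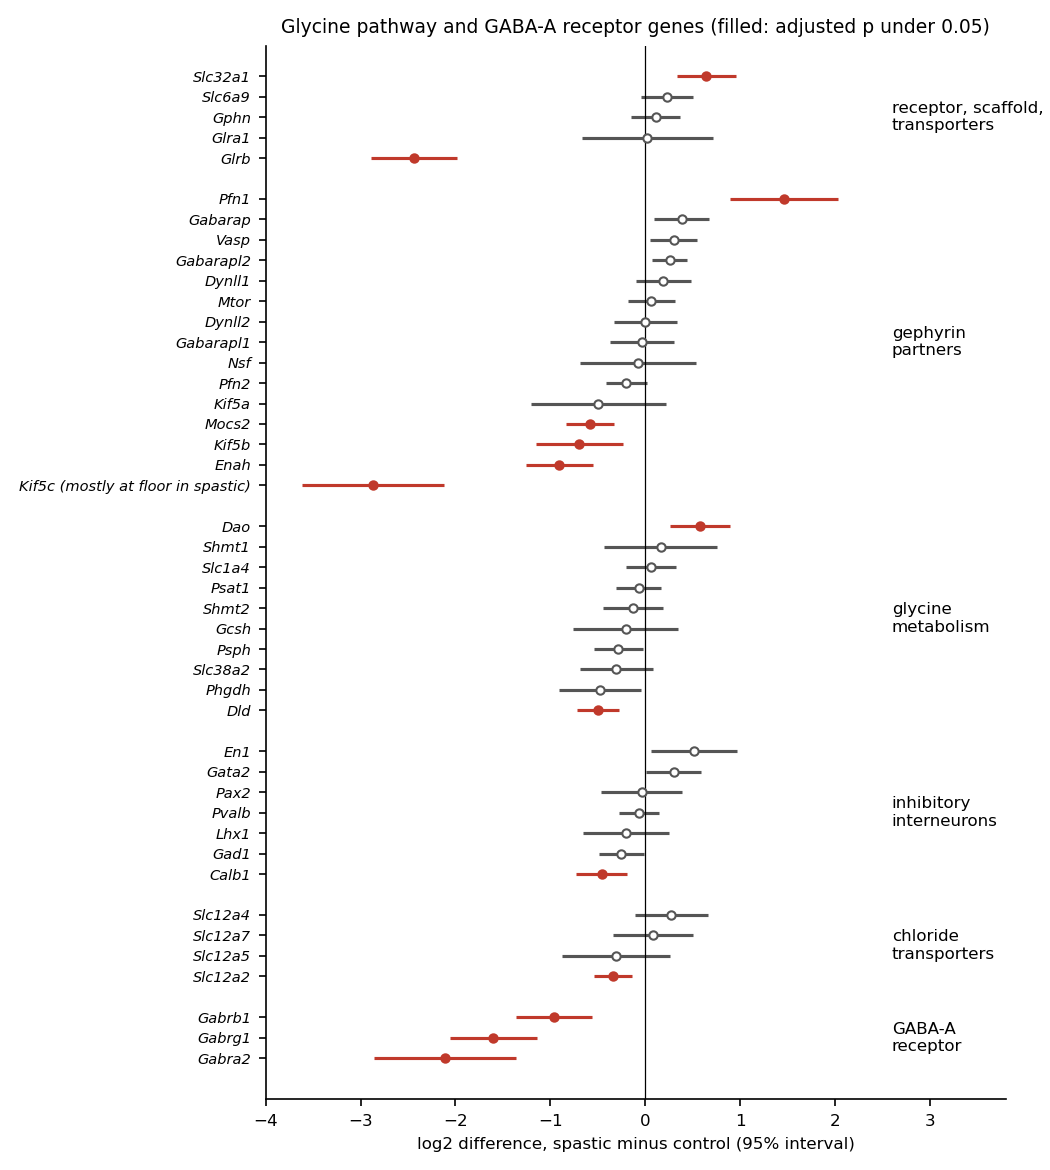
Log2 differences between spastic and control cords (horizontal axis, with 95% intervals) for the tested genes of 6 lists, with filled points where limma's adjusted p is under 0.05. Glrb and the GABA-A receptor subunits Gabra2 and Gabrg1 lie far to the left, as does Kif5c, whose place is set by the floor, and Pfn1 lies furthest to the right.

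Other genes followed the 5 closely across samples. Over the 10 samples, the genes most like Glrb by Pearson correlation were Rab11a (r = 0.985), Paip2 (r = 0.982) and Ccdc88a (r = 0.971), and the most opposite was Eng (r = -0.976); all 4 were themselves called between spastic and control cords. For Slc32a1 they were Ak1 (r = 0.977), Psmd11 (r = 0.974) and Map1s (r = 0.973), and Ino80c was the most opposite (r = -0.973). Psmd11 was also among the nearest when each sample was taken as its deviation from the mean of its group, over the 9 spastic and control samples (r = 0.948), after Arpc4 (r = 0.954). Glra1 was most like Sgip1 in both views (r = 0.912 and 0.945), followed over 10 samples by Meg3 (r = 0.886) and C1qa (r = 0.875). Degs1 was the most opposite to Glra1 over 10 samples (r = -0.882), and Prpf38b within groups (r = -0.990). Gphn was nearest to Gtf2i (r = 0.871), Pum2 (r = 0.865) and Dhx30 (r = 0.861), and Ing1 was its most opposite in both views (r = -0.945 and -0.948). Slc6a9 was nearest to Marcksl1 (r = 0.926), Pnkd (r = 0.895) and Ngef (r = 0.880) and most opposite to Art3 (r = -0.931). Within groups, Glrb was nearest to Wtap (r = 0.982), Gphn to Rtf2 (r = 0.983) and Slc6a9 to Tomm34 (r = 0.951). The points share the arrays' scaling, and these genes are by choice the extremes of 6425.

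Among themselves the 5 genes did not move as a unit. Over the 10 samples Glrb and Slc32a1 had a correlation of -0.80, which within the groups was -0.24 over 9 samples. Glrb and Glra1 stood at -0.21 over all samples and -0.43 within groups, and Glra1 and Gphn at -0.39 and -0.68. Slc6a9 and Slc32a1, the pair of transporters, stood at 0.43 and 0.13.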

How the data were processed

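The table of 16 single-colour arrays holds the authors' deposited intensity values, linear and 1 per probe set; the sources used here name no software behind them. Their mean after trimming 2% at each end was 800.4 to 800.5 on every array, so they were taken as scaled and not normalized again. Values under the 20th percentile of all values (60.9) were raised to that floor before log2; the 5 genes lay above this floor on every array. Tests excluded 66 control probe sets. Genes come from GEO's platform annotation, and the 5 symbols matched RefSeq (GRCm38.p6) by Entrez ID.

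Probe sets with a mean log2 above the 40th percentile were tested, the brightest for each gene (6425 in all, 5692 with a symbol and 733 without a single one). Arrays sharing a title but for the letter were averaged. limma 3.58.1 in R 4.3.3 (lmFit, eBayes with a trend) fitted group and titled sex. The spastic samples titled male entered as male despite their female Xist pattern. Spastic subgroups, and control ages, were split in separate fits for their comparisons. Adjusted p-values are Benjamini-Hochberg values over all 6425 genes, and tests are 2-sided. The model assumes that a lone sample varies as the replicated groups do. A difference is the first-named group less the second. The fit was tested on simulated data.

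The genes named were the 5 themselves; for each, the 3 genes with the highest and the 1 with the lowest Pearson correlation, of which the text prints most; of each other list, every called gene and, for interneurons and chloride transporters, the 2 brightest uncalled. Second probe sets and B6C3Fe levels of listed genes were chosen after their values were seen. The 5 genes, the lists and the alternatives were chosen with earlier results of these data known. The alternatives were other floors and filters, quantile normalization, other units of replication, every probe set, eBayes without a trend, no sex term, other control groups and log2 of age, sets of arrays left out, the Pcx ratio as a covariate, leaving out each sample in turn, and exact permutation tests. The letters a and b mark no shared animal or day in the labels, so a fit with the letter as a replicate block served as an alternative.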

Additional observations from a re-analysis of the deposited data

Results flagged for a closer look

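Among the spastic samples, the Glra1 log2 intensity of the sample titled M of 6 months lay apart from the others. It was at 11.43, and the nearest of the other 4 spastic samples at 10.42; that gap was 0.737 of the whole range of the 5 samples. Both arrays of this title, at 11.35 and 11.51, lay above the other spastic arrays. Chance alone marks about 1 in 20 such sets, and 10 sets (5 genes in spastic and in control samples) were examined.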

How the results depend on the processing

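Glrb kept its call against controls in 30 of 30 alternatives (-2.58 to -1.78). The floors, the filters and the fits without B6C3Fe among them can change its p-value but not its size. Against B6C3Fe it kept its call in 23 of 24, except without the 2 spastic samples titled male. Gphn and Slc6a9 were not called against controls in any (lowest p 0.317, exact, and 0.052, adjusted). Of the 5 genes, 2 were called between spastic and control cords in every fit that left out 1 sample and 1, Glrb, in 5 others: with only the 1a arrays, in the age model, without the spastic titled males, with titled females alone and with the Pcx ratio. All genes called, 1269 as reported, were then 758, 701, 398, 163 and 9, and 722 to 1272 with 1 sample left out (722 without the 12-month female, 809 without the 12-month male and 789 without the 9-month male controls). Against B6C3Fe 0 of 5 were called when the spastic titled males were left out and 2 with every array as a replicate. B6C3Fe minus control gained 1, Slc6a9, with arrays as replicates, as a random block and with the letter as a replicate block (0.86 in the last). These fits take the 2 arrays of the 1 B6C3Fe sample separately, so the gained calls rest on no further sample. The other counts for the 5 genes were the same in every alternative run. All genes called ran over 6 to 634 for spastic minus B6C3Fe (132 as reported), 4 to 525 for B6C3Fe minus control (25), 0 to 95 for 6 minus 2 months (30), 0 to 17 for sev (2) and 0 to 12 for 12 minus 9 months (0).

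Uncalled differences that changed sign were these. Glra1 between spastic and control cords was at -0.00147 with quantile normalization, -0.14 when array a of the 9-month females was dropped, -0.067 with the Pcx ratio and -0.33 to 0.25 with 1 sample left out. In the age model Slc6a9 was at -0.17 and Gad1 at 0.058. Pvalb was at 0.025 both without the spastic titled males and with titled females alone, and at 0.020 with the Pcx ratio, which put Slc12a5 at 0.45. Glrb in B6C3Fe minus control was at -0.024 with arrays as replicates and with the letter as a replicate block, -0.023 without array a, -0.013 with a random block, -0.046 without sex, -0.072 without the spastic titled males, -0.00323 with the Pcx ratio and -0.11 to 0.15 with 1 sample left out. Slc32a1 in 6 minus 2 months was at -0.090 with quantile normalization and -0.16 with the Pcx ratio, and in sev minus other spastic at 0.15 with quantile normalization, 0.16 with the Pcx ratio, 0.061 with only the 1a arrays and -0.26 to 0.20 with 1 sample left out. Slc6a9 in 12 minus 9 months was at 0.10 with titled females alone and -0.32 to 0.062 with 1 sample left out, as Glrb was at -0.37 to 0.013. Slc6a9 in 6 minus 2 months ran over -0.12 to 0.40. The cause was not tested. The letter as a replicate block changed no other call of the 5 genes; the deviations of array a from the sample mean correlated at -0.04 to 0.16 between samples. The fits with B6C3Fe among the controls were not run for the comparison of control ages. Alternatives that dropped the samples a comparison needs gave no value. The number of arrays limits all of this. The Pcx ratio was itself higher on average in spastic than in control cords (exact permutation p = 0.0317, adjusted over the 4 ratios 0.127). The other 3 control ratios were not higher there.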
